A study of Homo sapiens with 8 samples.

Results

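The accessibility of chromatin at 10 genes of the actin cytoskeleton and its contractile apparatus was followed by ATAC-seq through the TGFβ1-driven epithelial-mesenchymal transition (EMT) of MCF10A cells, an immortalised line of human mammary epithelium. The members were ACTA2, TAGLN, TPM1, TPM2, MYL9, CNN1, CALD1, ACTN1, FLNA and VIM. For each of them, every accessible region that overlapped the gene body or the 50 kb on either side was kept, which gave 156 of the 126658 regions found in the series, between 10 at MYL9 and 30 at ACTN1. Wild-type cells were given solvent (BSA in PBS) or 5 ng/ml recombinant human TGFβ1 for 6, 24 or 72 h, and solvent and TGFβ1 were renewed every 48 h in the longer treatments. All of them grew in medium with horse serum, EGF, hydrocortisone, cholera toxin and insulin. There were 2 replicates for each of the 4 conditions, 8 libraries in all. The labels put solvent at 0 h of TGFβ1. By the study's description, the solvent dish was kept in solvent for 72 h, and dishes of every condition were collected at the same time after plating.

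The deposited data hold 1 list of peaks per condition, called on both replicates together. Differences between the lists thus rest on no replicate spread, and none of them was tested. The study names a sequencing target per sample, but the lists do not show how many reads were left after filtering. Each peak comes with an AUC, a summed significance above the limit set in the peak caller, and this grows with read depth and with the width of the peak. AUCs were summed per region, and each TGFβ1 list was divided by 1 factor (1.36, 1.30 and 1.19 at 6, 24 and 72 h) so that regions within 3 kb of a transcription start site (TSS) had a median log2 ratio to solvent of 0. These quotients are called scaled AUC below. Without the factor, every log2 ratio would be higher by 0.44, 0.38 and 0.25 at the respective times. For the ratio of a single region, a list without a peak was taken at an AUC of 200, the lowest value in any list, so that a fold against an absent solvent peak is a lower bound. In sums over a locus an absent peak added 0, so that a new peak raised the sum by its whole AUC. A region was called opened or closed when its scaled AUC differed from solvent at least 2-fold. Of 10 opened regions described below that were also compared by AUC per base, which takes out the width of the peak, 6 stayed past 2-fold and 4 did not. Where solvent had no peak, however, the width cancelled out of this ratio, which then could not test the call. Of the 6, only the upstream TPM1 start had a solvent peak, and it was at 2.12-fold per base. All of the 4 had a solvent peak.

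Actin filaments become contractile when myosin II pulls on them. ACTA2 is the actin of smooth muscle and myofibroblasts, and MYL9 is a regulatory light chain of myosin II. The tropomyosins TPM1 and TPM2 lie along the filament and control where myosin can bind, calponin (CNN1) and caldesmon (CALD1) restrain the myosin motor, and transgelin (TAGLN), α-actinin-1 (ACTN1) and filamin A (FLNA) bundle or cross-link filaments. Vimentin (VIM) forms intermediate filaments and is a classical mesenchymal marker. Several of these genes are textbook targets of serum response factor (SRF), which binds the CArG box and is switched on by actin polymerisation through the coactivators MRTFA and MRTFB. AP-1, the dimer of JUN and FOS proteins, is a common partner of SMAD proteins at TGFβ-regulated elements.

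The regions and the promoter shown here carry the contrasts described below, and were chosen for the motifs they hold or lack. AP-1 motifs and CArG boxes are in capitals. The windows are the summit with 100 bases on each side, on the plus strand of hg38, in the order VIM (chr10:17206435-17206635, upstream), TPM1 (chr15:63097184-63097384 and chr15:63108086-63108286, both downstream), MYL9 (chr20:36507802-36508002, upstream) and CNN1 (chr19:11532116-11532316, upstream). The FLNA promoter (chrX:154374635-154374884) is from RefSeq on GRCh38.p14, the 250 bases before the start on the minus strand.
VIM upstream: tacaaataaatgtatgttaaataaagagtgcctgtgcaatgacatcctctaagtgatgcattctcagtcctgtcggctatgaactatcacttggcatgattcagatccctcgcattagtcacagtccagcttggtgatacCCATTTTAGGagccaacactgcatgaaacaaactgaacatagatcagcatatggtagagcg
TPM1 downstream, nearer: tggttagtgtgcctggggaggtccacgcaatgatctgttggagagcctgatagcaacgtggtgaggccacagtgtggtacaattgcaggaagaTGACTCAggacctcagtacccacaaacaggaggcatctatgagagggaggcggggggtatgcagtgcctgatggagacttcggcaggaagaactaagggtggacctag
TPM1 downstream, farther: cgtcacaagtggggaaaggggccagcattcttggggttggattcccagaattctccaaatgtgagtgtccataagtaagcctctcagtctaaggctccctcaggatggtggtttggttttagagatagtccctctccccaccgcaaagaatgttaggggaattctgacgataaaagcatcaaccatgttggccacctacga
MYL9 upstream: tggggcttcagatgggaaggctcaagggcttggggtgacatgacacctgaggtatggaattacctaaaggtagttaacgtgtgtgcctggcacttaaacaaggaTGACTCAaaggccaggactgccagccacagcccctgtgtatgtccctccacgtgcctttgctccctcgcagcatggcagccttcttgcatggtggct
CNN1 upstream: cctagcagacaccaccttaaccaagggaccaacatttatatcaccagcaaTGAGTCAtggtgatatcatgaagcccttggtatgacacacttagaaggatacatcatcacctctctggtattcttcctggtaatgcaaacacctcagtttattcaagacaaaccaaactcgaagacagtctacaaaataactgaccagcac
FLNA promoter: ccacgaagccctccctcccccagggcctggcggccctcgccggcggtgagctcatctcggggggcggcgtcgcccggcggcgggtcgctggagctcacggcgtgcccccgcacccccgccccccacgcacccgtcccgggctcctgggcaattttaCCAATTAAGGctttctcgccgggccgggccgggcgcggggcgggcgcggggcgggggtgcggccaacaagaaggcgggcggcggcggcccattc

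Pooled over regions near and away from starts, the 10 loci opened no more often than the genome did. At 6 h, 4 of 131 member regions with a peak in solvent or in that list had opened (3.05%, against 4.77% of all regions). At 24 h it was 12 of 144 (8.33%, against 12.6%), and at 72 h 18 of 137 (13.1%, against 16.6%). The pooled shares mix unlike sets, since 100 of the 156 member regions lay within 3 kb of a TSS, but 43524 of all 126658. Within 3 kb of a TSS, 2.17%, 7.69% and 11.2% of member regions had opened, against 3.13%, 7.66% and 9.65% of all such regions. Away from any TSS it was 5.13%, 9.43% and 16.7%, against 5.73%, 15.3% and 20.2%. Closing was rare, with 1 member region at each time, beside 0.248%, 1.05% and 1.56% of all regions at 6, 24 and 72 h. New peaks, pooled in the same way, were about as frequent as elsewhere. Of the tested member regions, 32, 45 and 38 had a peak after 6, 24 and 72 h and none in solvent (24.4%, 31.2% and 27.7%), against 22.9%, 29.8% and 29.3% of all regions. Away from any TSS new peaks were more frequent at the members, at 33.3%, 50.9% and 45.8%, against 26.8%, 35.2% and 35.4% of all such regions. Within 3 kb of a TSS they made up 20.7%, 19.8% and 18.0%, against 16.2%, 19.7% and 17.8%. Lost peaks numbered 2, 2 and 3, with a background of 0.551%, 1.31% and 2.43%. Counts of new and lost peaks depend on list length. The solvent list was the shortest, with 86209 peaks against 107656, 118433 and 116720 at 6, 24 and 72 h. With lists of equal length, new peaks at members fell to 11 and 13 at 6 and 24 h, and lost peaks rose to 5 and 13. A peak in all 4 lists was found at 96 of the 156 regions (61.5%), and at 62.6% of all regions.

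Sums over whole loci stayed near solvent. No member passed a 1.5-fold difference from solvent at any time, in either direction. Among all protein-coding loci, 4.24%, 10.2% and 11.3% were higher at least 1.5-fold at 6, 24 and 72 h, and 0.0160%, 0.0319% and 0.160% were lower. The median member locus had a log2 ratio of 0.14, 0.18 and 0.24, beside 0.05, 0.10 and 0.11 over all loci, and 6 of the 10 members lay above that median at each time. TPM1 came closest to the limit, with 1.18-, 1.37- and 1.49-fold of solvent at 6, 24 and 72 h, followed by MYL9 with 1.32-, 1.40- and 1.40-fold. ACTN1, TAGLN and CALD1 reached 1.25-, 1.24- and 1.22-fold at 72 h, and VIM 1.15-fold. ACTA2, CNN1 and TPM2 ended at 1.05-, 1.07- and 1.03-fold. FLNA was the only member below solvent at 24 and 72 h, at 0.940 and 0.912 of its solvent sum, and 6.67% of loci were lower still at 72 h. With absent peaks taken at 200 in these sums, a choice made after the data were seen, again no member passed 1.5-fold, and 1.15%, 4.19% and 5.64% of all loci were higher. MYL9 then stood at 1.19-fold and TPM1 at 1.40-fold at 72 h. FLNA was no longer alone below solvent. It was at 0.918-fold at 24 h and 0.919-fold at 72 h, ACTA2 at 0.960- and 0.976-fold, and CNN1 at 0.998-fold at 24 h. Without the list factor the FLNA sum at 72 h lay above solvent, at a log2 ratio of 0.11.

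**Figure D1:**
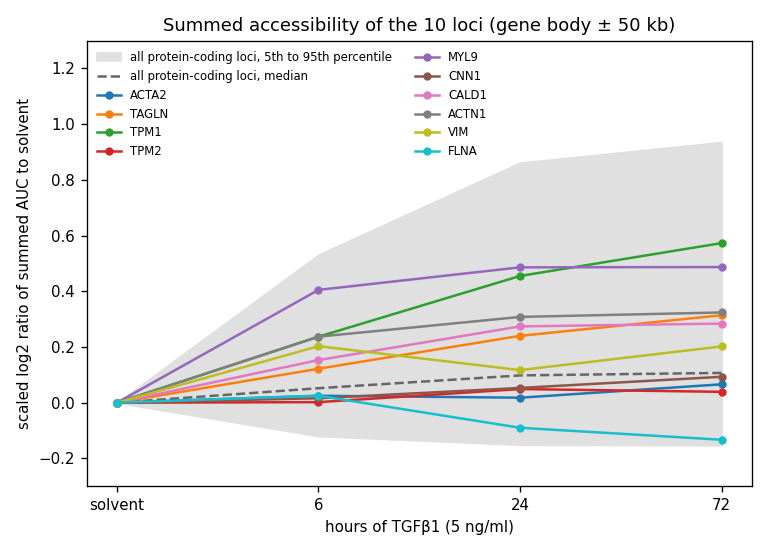
Log2 ratio of the scaled AUC summed over each locus (gene body and 50 kb on either side) to solvent, at 6, 24 and 72 h of TGFβ1 (steps on the time axis are not to scale), with the median and the 5th to 95th percentile of all protein-coding loci in grey. TPM1 and MYL9 run highest among the 10 members, FLNA ends lowest at -0.13, and all 10 stay inside the grey band.

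These sums mix the members' own regions with those of their neighbours. Regions near the start of another gene held 48.6% of the solvent AUC in the 10 windows, and the share was 97.0% at CNN1, 83.5% at TPM2 and 77.6% at TAGLN. Member regions at another gene's start had a median log2 ratio of -0.05, -0.05 and -0.08 at 6, 24 and 72 h (45, 45 and 44 regions with a peak in both lists). Regions at the members' own starts had 0.22, 0.10 and 0.24 (26 regions), and 19 of these 26 were above 0 at 72 h. Over all regions near a start, the list factor sets the median at 0, with 16049 of 32098 above 0 at 72 h. ACTN1 alone held 15 of the 42 own-start regions, counted with or without a peak in both lists. Away from any start, the median of member regions was 0.17, 0.19 and 0.29 (26 regions), close to the 0.12, 0.23 and 0.27 of all such regions in the series.

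When only regions whose nearest protein-coding TSS was that of the member were summed, TAGLN, CNN1 and MYL9 passed 1.5-fold at 72 h, with 2.30-, 2.06- and 1.91-fold of solvent. The other members lay between 0.969-fold (FLNA) and 1.48-fold (TPM1). By this sum, 1, 3 and 3 of the 10 members were higher at least 1.5-fold at 6, 24 and 72 h, and 7.10%, 16.5% and 18.8% of all protein-coding genes were. The CNN1 and MYL9 values at 72 h depend on absent peaks adding 0. With such peaks taken at 200, CNN1 was at 1.44-fold and MYL9 at 1.41-fold at 72 h, and 0, 2 and 1 members were higher at 6, 24 and 72 h (TAGLN and CNN1, then TAGLN), beside 2.21%, 7.14% and 9.81% of all genes. The TAGLN value rests on a single region, whose ratio per base was 1.25-fold.

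How far a region could move depended on its strength in solvent, in the whole series as at these genes. All regions with a solvent AUC of 200 to 500 had a median log2 ratio of 0.47 at 72 h (5th to 95th percentile -0.47 to 1.83), and those of 4000 and above had -0.12 (-0.31 to 0.14). Of the 18 member regions opened at 72 h, 12 had no solvent peak and 4 had a solvent AUC below 500. Of all 19345 regions opened at 72 h, these were 10981 and 6214. Without a solvent peak, 31.6% of member regions and 32.1% of all regions had opened, and at 200 to 500 it was 14.3% and 22.1%. At 500 to 1000 it was 3.57% and 8.43%, and at 1000 to 2000 6.25% and 1.90%. None of the 27 member regions with a solvent AUC of 2000 or more had opened at 72 h. Such opening was rare in the series too (0.206% at 2000 to 4000 and 0.0581% at 4000 and above). Set against regions of like solvent AUC, 3 of 96 member regions lay above the 95th percentile at 72 h and 6 lay below the 5th, where 5% are found on each side by construction. The 3 were the TAGLN start, a region 40134 bp downstream of that start, and the nearer of the downstream TPM1 regions shown above. At 6 h, 5 of 97 lay above (5.15%) and 7 below (7.22%), and at 24 h 4 of 97 lay on each side (4.12%). The regions named below as above the limit at 6 h, at TPM2, ACTN1 and VIM, are among those 5.

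**Figure D2:**
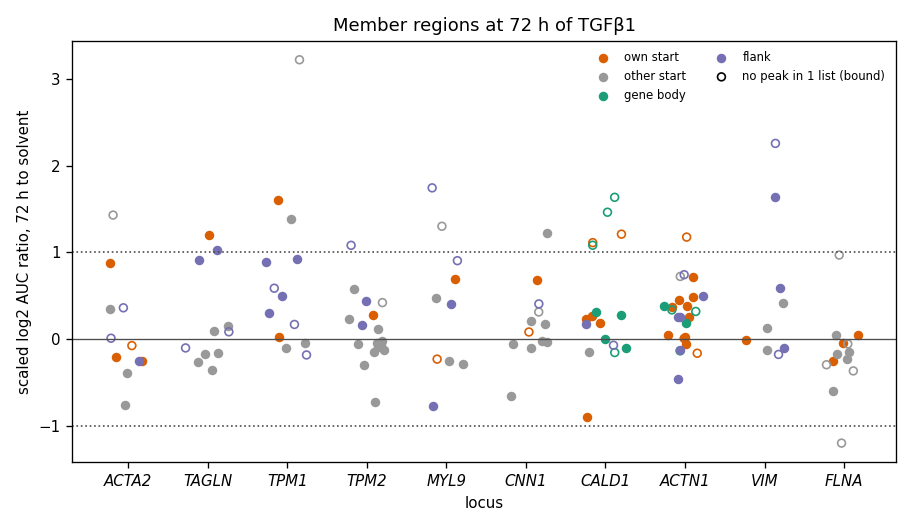
Scaled log2 AUC ratio of 72 h TGFβ1 to solvent for the 137 member regions with a peak in either list, by locus and by position, with dotted lines at 2-fold. Open circles mark regions with no peak in 1 of the lists, whose values are bounds. CALD1, which has the longest window, held the most opened regions (5) and FLNA the single closed region.

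TAGLN, also known as SM22α, gained summed AUC at its start site, but not 2-fold per base. The region over its TSS (chr11:117198798-117199803) had scaled AUCs of 1135, 1677, 2417 and 2616 in solvent and after 6, 24 and 72 h. The difference was 2.30-fold at 72 h (log2 1.20). By AUC per base it was 1.25-fold (log2 0.32), short of the limit for opened. The summed AUC grew from list to list, and most of the gain was there by 24 h. For comparison, regions of 1000 to 2000 AUC in solvent had a 95th percentile of 0.77 in log2 at 72 h, and only 2.97% of all protein-coding genes had opened at least 2-fold at their strongest start region. A CArG box lay within 100 bases of the summit, and no AP-1 motif did. The region 40134 bp downstream (chr11:117239200-117239724, over an exon of RNF214, with an AP-1 motif) had 1080, 1437, 1964 and 2038. It was singled out after its values were seen, and at 1.89-fold it stayed short of the limit for opened. A weak region 24808 bp upstream of the start (chr11:117174358-117174655, in an intron of PAFAH1B2, with an AP-1 motif) did pass it, with 280, 446, 386 and 572, 2.04-fold at 72 h.

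The tropomyosin gene TPM1 has alternative promoters that give long and short isoforms, and these differed. The upstream start (chr15:63042388-63043224) had scaled AUCs of 350, 686, 1075 and 1063 in solvent and at 6, 24 and 72 h, 3.04-fold at 72 h. The internal start (chr15:63047906-63049484), 5693 bp into the gene, had 4134, 4273, 4155 and 4210, a difference of 1.02-fold. Per base, the upstream start was 2.12-fold of solvent. The weak start thus opened while the strong start kept its level, although a log2 ratio of 1.60 was within the range of weak regions in the series (95th percentile 1.83).

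Both downstream TPM1 regions lay in an intron of a long non-coding RNA gene (ENSG00000259672), and the nearest protein-coding TSS was that of LACTB. The nearer region (chr15:63097011-63097794), with its AP-1 motif, had 929, 1293, 1947 and 2424, or 2.61-fold at 72 h, and 1.86-fold per base (log2 0.89), under the limit for opened. The farther region (chr15:63107904-63108533), which has neither an AP-1 motif nor a CArG box in its window, had no peak in solvent or at 6 h, then 760 at 24 h and 1866 at 72 h. It was at least 9.33-fold above solvent, the largest fold among all member regions at 72 h. Upstream of TPM1, the regions at -39072 and -29320 bp had 511 and 548 in solvent and 944 and 1039 at 72 h, 1.85- and 1.90-fold.

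TPM2, the other tropomyosin gene, was already wide open in solvent. Its start region (chr9:35688571-35691577) had 3195, 3932, 3907 and 3870, 1.21-fold at 72 h, but 1.05-fold per base. The whole step in summed AUC was present at 6 h. The log2 ratio of 0.30 at 6 h lay above the 95th percentile of 0.265 for regions of that strength. At 6 h, 5.15% of member regions lay above that percentile, where 5% do by construction. The single opened region of the locus at 72 h (chr9:35719230-35719552) lay in an intron of the neighbouring TLN1 gene, which encodes talin.

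MYL9 had no solvent peak at its TSS. A small region there (chr20:36541361-36541578), with a CArG box near its summit, had scaled AUCs of 271, 314 and 170 at 6, 24 and 72 h, close to the lowest values in the lists. The stronger region 3105 bp into the gene (chr20:36544113-36544719) had an AP-1 motif and scaled AUCs of 562, 810, 778 and 905, 1.61-fold at 72 h. The region 33617 bp upstream (chr20:36507719-36508018), in an intron of DLGAP4 and shown above for its AP-1 motif, had 326 and 670 in the 24 and 72 h lists, the latter at least 3.35-fold above solvent. Like the farther TPM1 region, it had no peak in solvent or at 6 h. The other opened region (chr20:36573286-36573710), near the start of TGIF2, which encodes a repressor of TGFβ-responsive genes, had no solvent peak and then 534, 507 and 493, at least 2.46-fold at 72 h.

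CNN1, a marker of differentiated smooth muscle, had no peak over its main TSS in any list. The nearest upstream region (chr19:11535867-11536453), 2606 bp before the TSS, had 461, 682, 697 and 739, 1.60-fold at 72 h. Per base this region was 1.18-fold at 72 h (log2 0.23). The region 6635 bp upstream (chr19:11532057-11532366), shown above for its AP-1 motif, had 383, 777, 863 and 895, 2.34-fold at 72 h, and was 2.03-fold at 6 h. Per base it was 1.71-fold at 72 h (log2 0.77), under the limit for opened. Its nearest protein-coding TSS was that of ECSIT, 2885 bp from the region. Both regions gained most within the first 6 h. A weak region within the gene (chr19:11545972-11546182) appeared only in the 72 h list, at 212. Of the 13 regions of the window, 10 were near the starts of other genes.

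ACTA2, the standard marker of the myofibroblast, had its largest start region at a promoter it shares with FAS, the death receptor gene (chr10:88989551-88991533). That region had 6758, 6135, 5611 and 5853, or 0.866-fold at 72 h. The main ACTA2 start, 38015 bp away, had no peak over the TSS itself. The region in its first intron had 692, 879, 1235 and 1274, 1.84-fold at 72 h. This region was chosen after its values were seen. The single ACTA2 region past 2-fold (chr10:88979241-88979521) had no solvent peak and 263, 394 and 539 after TGFβ1, at least 2.69-fold at 72 h. Its nearest protein-coding TSS was that of FAS, 2456 bp from the region.

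CALD1 held the most opened regions of any member at 72 h, 5 of its 18, and none of the 5 had a solvent peak. Its window was also the longest of the 10, at 326478 bp. Of all regions in the series 16.6% had opened at 72 h, and 32.1% of those with no solvent peak. In all, 7 CALD1 regions had a peak at 72 h and none in solvent. The 2 strongest, at 96382 and 128835 bp into the gene (chr7:134875867-134876142 and chr7:134908335-134908595), had no solvent peak. The former had 359, 561 and 551 at 6, 24 and 72 h, and the latter 394, 521 and 621, at least 2.76- and 3.11-fold above solvent at 72 h. Neither window held an AP-1 motif or a CArG box. The main start (chr7:134779096-134780420) had 3310, 3535, 3725 and 3894, and the internal start (chr7:134890482-134892336) had 3237, 3895, 4092 and 3906, 1.18- and 1.21-fold at 72 h. A region just before the internal start (chr7:134888236-134888916) went the other way, with 1466, 1338, 1102 and 784, or 0.535-fold. It was picked after its values were seen and lay below the 5th percentile of regions of its strength (log2 -0.90 against -0.55). The strongest region in the gene body (chr7:134899192-134900220) had 1920, 2155, 2205 and 2328.

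ACTN1 had the most regions, 30, of which 8 had a peak at 72 h and none in solvent. Only 1 of them had opened (chr14:68950547-68950882, with no solvent peak and then 363, 553 and 452). The main start (chr14:68977220-68980135) was level at 7926, 7424, 7444 and 8025. A strong intronic region 39131 bp into the gene (chr14:68939869-68940573), chosen after its values were seen, had 1587, 2538, 2729 and 2598. Its 1.60-fold at 6 h was above the 95th percentile of its strength class then and at 24 h (log2 0.68 against 0.48, and 0.78 against 0.67), but not at 72 h (0.71 against 0.77). Together, the gene bodies of CALD1 and ACTN1, away from starts, held 7 new peaks among 13 tested regions at 72 h (53.8%, against 35.4% of all regions away from starts). Only 3 of the 13 had opened. Several new peaks were near the limit of detection, with scaled AUCs of 180 at CALD1 and 252, 249 and 182 at ACTN1. No other member had a region of this class.

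FLNA differed little from solvent. Its main start had a peak in the 6 h list alone (chrX:154374295-154374679, scaled AUC 166), although the promoter shown above holds a CArG box between -94 and -85. The strongest region, 5470 bp into the gene with an AP-1 motif (chrX:154368300-154370289), had 4277, 4539, 4514 and 4426, 1.03-fold at 72 h. The next region (chrX:154370587-154372181), over an internal start, had 2131, 2266, 1931 and 1784, or 0.837-fold. The 1 closed region of the whole set (chrX:154401872-154402355) was near the start of DNASE1L1. It had 388 in solvent and 159 at 6 h and no peak at 24 or 72 h, which puts it at no more than 0.435 of solvent at 72 h.

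VIM, the intermediate filament gene, was open at its start from the outset. The region over the TSS (chr10:17228104-17230995) had 8508, 8838, 8141 and 8473, which was the largest scaled AUC among the members' start regions in each list. The difference at 72 h was 0.996-fold. The regions with higher AUC lay on either side of the gene. The region 10765 bp downstream (chr10:17238311-17239413) had 371, 1146, 735 and 1159, 3.12-fold at 72 h but 1.39-fold per base (log2 0.47), under the limit for opened, and its AUC was higher at 6 and 72 h than at 24 h. At 6 h, its log2 ratio of 1.63 was above the 95th percentile of 1.19 for regions of its strength. The region 21706 bp upstream (chr10:17206220-17206684), with the CArG box shown above, had no solvent peak and then 447, 950 and 956, at least 4.78-fold above solvent at 72 h. Its nearest protein-coding TSS was that of TRDMT1, 4166 bp from the region.

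**Figure D3:**
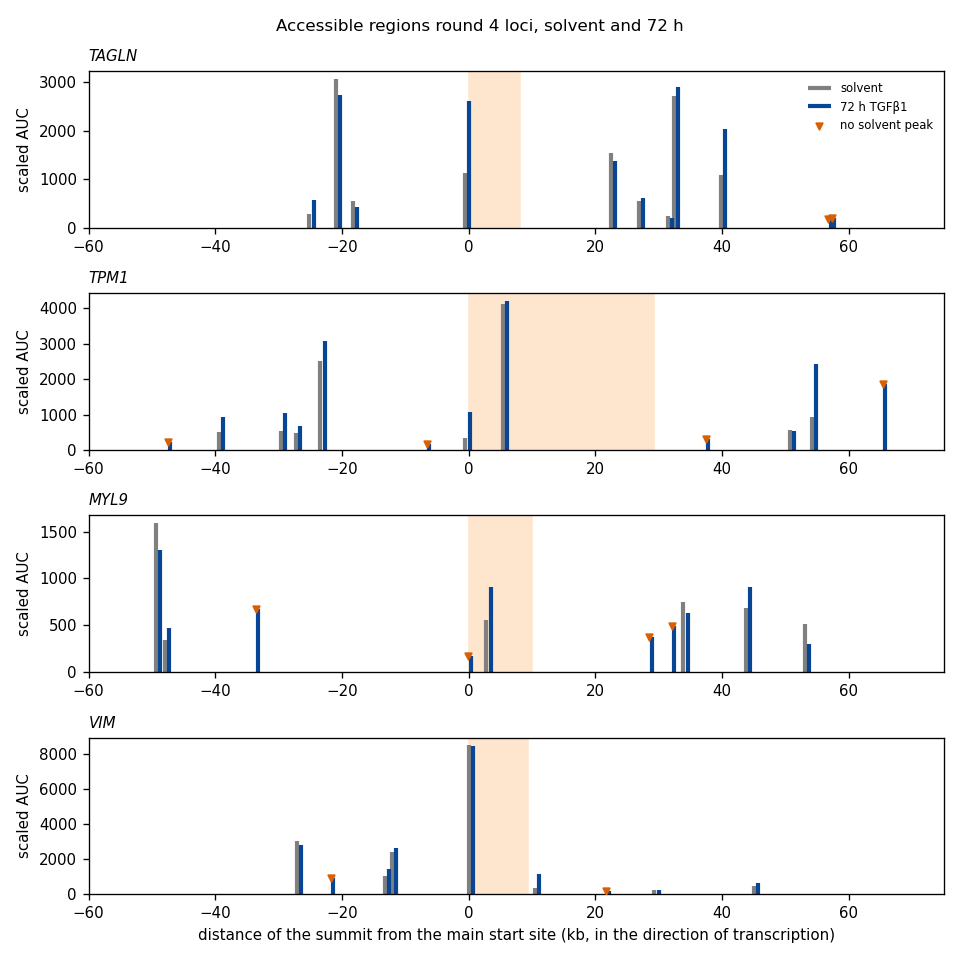
Scaled AUC of the regions at TAGLN, TPM1, MYL9 and VIM in solvent (grey) and at 72 h (blue), by distance in kb of the summit from the main start along the direction of transcription. The shaded span is the gene, and triangles mark regions without a solvent peak. Summed AUC is higher at the start for TAGLN, at the start and downstream for TPM1, and on both sides of a level start for VIM, but per base the TAGLN start, the nearer downstream TPM1 region and the downstream VIM region are less than 2-fold of solvent.

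Peaks in the 6 h list alone were found at 9 member regions (5.77%, against 2.03% of all regions), namely 3 at ACTN1, 2 each at TPM1 and FLNA and 1 each at TPM2 and VIM. Their scaled AUCs were between 149 and 215, so that each lay close to the limit of detection.

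Loci cannot be ranked by sum because their windows differ in length. Per kb of window, the solvent AUC was highest at TPM2 (253), followed by FLNA (152), VIM (147), CNN1 (137), ACTN1 (112), TAGLN (103), TPM1 (100), ACTA2 (70.4), CALD1 (50.5) and MYL9 (40.4). At 72 h TPM2 was still highest (260) and MYL9 lowest (56.6), with VIM (170) and TPM1 (149) next below TPM2. Without replicates, neighbours in this order cannot be told apart.

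Motifs were searched on both strands around each summit. A CArG box (CC, 6 bases that are A or T, GG) was within 100 bases of the summit at 10 of the 156 member regions, 2 of the 18 opened at 72 h (11.1%) and 8 of the other 138 (5.80%). Of all regions in the series, 1.06% held such a box, and of all regions opened at 72 h 1.24%. An AP-1 motif (TGACTCA or TGAGTCA) was in 6 of the 18 opened member regions (33.3%) and in 20.3% of the others, beside 32.2% of all regions and 45.0% of all regions opened at 72 h. The MCAT element bound by TEAD proteins (GGAATG or CATTCC) was in 11.1% of opened member regions, 15.9% of all regions and 21.3% of all opened at 72 h. The E-box of the EMT factors SNAIL and ZEB (CACCTG or CAGGTG) was in 1 of the 18. It was in 18.0% of all regions and 12.6% of all opened at 72 h. A SMAD palindrome (GTCTNGAC, or its reverse complement) was in none of the 18, beside 1.36% of all regions and 1.97% of all opened. Palindromic motifs were counted once, and none of these motifs contains another. In RefSeq promoters (250 bases before the start), a CArG box was in 2 of 16 from 8 members, those of ACTN1 and FLNA, against 1.16% of 35116 promoters. AP-1 was in none of the 16, against 4.20%. Promoters of TAGLN and MYL9 were not among them. A match is a string of letters, not a site shown to be bound.

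Of 25 further structural genes (actins, myosins, filamins, calponins, talin and vinculin among them), none had a locus sum 1.5-fold higher or lower at any time, and the median log2 ratio at 72 h was 0.12 (range -0.05 to 0.48). Of 8 regulators, 2 were higher at 24 and 72 h and none at 6 h. Beside these counts, 4.24%, 10.2% and 11.3% of all protein-coding loci were higher at 6, 24 and 72 h, and 0.0160%, 0.0319% and 0.160% were lower. With lists this short, the counts are no result about regulators or structural genes as groups. MYOCD, which encodes the SRF coactivator myocardin of smooth muscle, had a scaled sum of 3594 in solvent and 5252, 7137 and 7874 after TGFβ1, 2.19-fold at 72 h. PPP1R12A, a subunit of the phosphatase that turns myosin off, had 6757, 9263, 10602 and 11352, 1.68-fold at 72 h. With absent peaks taken at 200, MYOCD was at 1.64-fold and PPP1R12A at 1.46-fold at 72 h, so that only MYOCD passed 1.5-fold. By that sum, 5.64% of all protein-coding loci were higher at 72 h. The next in size at 72 h were ROCK1 (a kinase that activates myosin, 1.41-fold), MYLK (myosin light chain kinase, 1.39-fold), ACTG2 (1.36-fold) and CNN3 (1.33-fold). SRF itself was at 0.988-fold. At 72 h, the MYOCD difference lay mostly away from its start sites. Regions within 3 kb of a MYOCD TSS had a summed AUC of 1459 without TGFβ1. After 6, 24 and 72 h of treatment their sums were 2225, 2057 and 1759, not divided by the list factor. Without that division, the whole MYOCD locus summed to 3594 before treatment and to 9343.5 after 72 h. Peaks were present at 6 of its 13 regions before treatment and at 12 after 72 h.

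The epithelial label was checked at start sites. All 7 markers of basal mammary epithelium (KRT5, KRT14, KRT17, TP63, ITGB4, CDH1 and EPCAM) had a peak within 3 kb of a TSS in every list, with summed solvent AUCs of 757 to 8823. So did 7 markers of blood, endothelial, stromal and smooth muscle cells (PTPRC, PECAM1, CDH5, PDGFRB, COL1A1, MYOCD and MYH11, 261 to 6124), while CD3E had none. A peak at a start site thus did not separate the cell types.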

How the data were processed

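Reads were, per the labels and the study's methods, trimmed by the authors with Trimmomatic 0.38, aligned to GRCh38 with Bowtie2 2.4.5 and freed of duplicates with Picard, and Genrich 0.5 called peaks on both replicates of a condition together. The deposited signal per peak is Genrich's AUC, and the deposited −log10 q-value at each summit was not compared between lists. Before peak calling, SAMtools 1.4.1 was used to drop mitochondrial reads and to keep proper pairs of high mapping quality.

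Peaks of the 4 lists sharing at least 1 bp were merged, and no region passed a chromosome end of the hg38 sequence. Genes and TSSs came from GENCODE 44. Distances are from the summit to the TSS of the main (Ensembl canonical) transcript. The list factor used regions within 3 kb of any TSS with peaks in both lists. Scripts ran in Python 3.11.15 with pandas 2.3.3 and numpy 2.4.6, and were tested on simulated data. Without replicate values, no test was possible.

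The members, the lists of other genes and the motifs were chosen with earlier results of these data known. Named were, by rule, the strongest start and gene-body regions, the 10 opened and up to 5 closed regions with the largest AUC differences at 72 h, the 5 strongest without a solvent peak, regions at 6 h alone and the 6 other genes that differed most. In locus sums an absent peak counted as 0. Alternatives changed the minimum AUC, overlap, list factor, AUC measure, window and list length, and, added after the data were seen, put absent peaks at 200 in locus sums. A marker gene and a region's sequence are not reported here.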

Additional observations from a re-analysis of the deposited data

How the results depend on the processing

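No paired analysis was possible because each list was called on both replicates together. Of 150 recomputed summary values, 77 stayed within 1.5-fold of the count, or 0.1 of the log2 ratio, given above. The others follow, in the order 6, 24 and 72 h where several are given, and their causes were not tested unless stated. A minimum AUC of 400 left 6 and 8 opened regions at 24 and 72 h, 0 closed at each time, 18 and 23 gained at 6 and 72 h, 0 lost at 6 and 24 h, and 1 locus higher at 24 h (MYL9) and at 72 h (TPM1). Counting peaks as shared at 50% reciprocal overlap gave 7, 8 and 6 lost. The factor from all shared regions lowered every log2 ratio (by 0.06, 0.12 and 0.14), so that the median of member regions turned to -0.048 at 24 h and -0.095 at 72 h, with 2 closed at 72 h. Without a factor all ratios were higher (by 0.44, 0.38 and 0.25), the medians were 0.528, 0.454 and 0.297, 16 and 31 regions had opened at 6 and 24 h, 0 had closed, 5, 5 and 2 loci were higher, and FLNA at 72 h reversed to 0.114. The factor from protein-coding starts and the strongest peak alone each put 1 locus, TPM1, past 1.5-fold at 72 h, and with the strongest peak the CALD1 gene-body region at 134899192 reversed to -0.625. AUC per base gave 2 closed at 24 h, and at 72 h it put 4 opened regions under the log2 limit of 1, namely the TAGLN start (0.320), VIM 17238311 (0.474), TPM1 63097011 (0.892) and CNN1 11532057 (0.774). Windows of 10 kb, which hold 75 regions, gave 2, 6 and 11 opened, 0 closed, 20, 22 and 19 gained, 0 lost, and 1, 2 and 2 loci higher (MYL9, joined by TAGLN). Regions with the member's start nearest, 91 in all, gave medians of 0.218, 0.243 and 0.271, 1 and 10 opened at 6 and 72 h, 0 closed, 27 and 22 gained at 24 and 72 h, 1 lost at each time, and 1, 3 and 3 loci higher. Absent peaks at 200 in locus sums, added after the data were seen, left 0 loci higher at each time in the full windows, and 0, 2 and 1 with the member's start nearest. Lists of equal length gave 2, 3 and 4 closed, 11, 13 and 14 gained and 5, 13 and 17 lost. Over the alternatives, the share of member regions opened at 72 h ranged from 8.08% (minimum AUC of 400) to 17.5% (no list factor, and windows of 10 kb). A change of window leaves the 16.6% of all regions as it is. Beside it stood 17.5% of member regions for 10 kb and 13.2% for regions with the member's start nearest. Under the other alternatives the share of all regions was not recomputed, so the member shares cannot be set against it. Of the values for single regions and loci, 280 stayed within 0.1, 171 moved by more and the 2 named above reversed. The unknown depth limits all ratios, and weak regions most, since they lie near the threshold of the peak caller.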
